A study of Mus musculus with 2 samples.

Results

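The proteins of the 35 genes described here fold new proteins in the endoplasmic reticulum (ER) or remove those that fail to fold. They were taken as a list of gene symbols, and all 35 are among the 32285 genes counted. By role the list holds 10 genes of the chaperone machine, 7 of the disulfide isomerase family, 3 of the lectin chaperone cycle, 5 that recognise substrates of ER-associated degradation (ERAD), 8 of the ERAD membrane machinery and 2 prolyl isomerases.

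Endothelial cells were sorted from mouse lymph nodes and their transcripts counted cell by cell with 10x Genomics 3′ chemistry. Of the 2 libraries, each mixes 4 pools told apart by an antibody hashtag, 1 for either tissue (peripheral or mesenteric nodes) of either genotype (wild type, WT, or Xbp1-KO). Tamoxifen, the drug that switches on inducible Cre recombinases, was given to WT and Xbp1-KO mice alike, and the labels name neither the Cre line, the deleted exons nor the age, sex and number of mice in a pool. Each combination of tissue and genotype thus has n = 2 pools, 1 per library, and p-values below measure the spread between these pools.

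Proteins that enter the ER are bound by the HSP70 chaperone BiP and the HSP90 chaperone GRP94, receive disulfide bonds from the PDI family, and pass through cycles of binding to calnexin and calreticulin while their N-glycans are trimmed. Chains that do not fold are picked out by lectins, carried through a membrane complex built around the ubiquitin ligase HRD1 and degraded by the proteasome. When unfolded protein builds up, the unfolded protein response raises many of these genes, and one of its arms works through XBP1, a transcription factor made after the IRE1 nuclease removes a short intron from the Xbp1 mRNA. High endothelial cells line the venules through which lymphocytes enter lymph nodes, and they make and secrete heavily glycosylated mucin-like proteins. Plasma cells are the best known example of a cell that needs XBP1 to build its secretory apparatus.

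The full stress-response elements were present in a larger share of the list's promoters than of promoters at large, and the stretches that hold them are shown because XBP1 and its partner ATF6 are known to act through such letters. RefSeq promoters (GRCm38.p6, 250 bases before to 50 after the start) were found for 30 of the 35 genes, and Derl1, Erlec1, Manf, Sil1 and Hyou1 had none in the table. The ER stress response element (CCAAT and CCACG with 9 bases of any kind between them, read on both strands) was present in 9 of these 30 genes (30%), against 0.137% of all 27025 genes with a promoter. The second form (ATTGG and CCACG with 1 base between them) was found in 2 of 30 (6.67%, Herpud1 and Dnajb11) against 0.0444%. The core TGACGTG was found in 4 of 30 (13.3%; Hspa5, Ube2j1, Txndc5 and Txndc11) against 2.22%. The short core CCACG, which is contained in both elements, was in 90% against 35.5%. In the other ER list of 43 genes that serves as a comparison below, 33 genes had a promoter in the table. Of these, 1 (3.03%) held the first element, 0 the second, 4 (12.1%) the core TGACGTG and 51.5% the short core CCACG, so that the share with TGACGTG was close to that of the members. The 7 stretches below end before the start site, and capitals mark the matched letters on either strand.
Hspa5 (chr2:34771913-34772063, + strand): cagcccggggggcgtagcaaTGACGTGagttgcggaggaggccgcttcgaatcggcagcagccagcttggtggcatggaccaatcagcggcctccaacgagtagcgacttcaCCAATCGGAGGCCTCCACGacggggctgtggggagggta
Hsp90b1 (chr10:86705513-86705676, − strand): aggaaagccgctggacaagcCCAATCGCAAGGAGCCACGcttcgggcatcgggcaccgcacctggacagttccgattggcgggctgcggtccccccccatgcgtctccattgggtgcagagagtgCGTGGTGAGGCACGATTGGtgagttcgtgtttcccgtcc
Calr (chr8:84847055-84847113, − strand): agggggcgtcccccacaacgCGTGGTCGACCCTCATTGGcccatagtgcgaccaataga
Canx (chr11:50325780-50325838, − strand): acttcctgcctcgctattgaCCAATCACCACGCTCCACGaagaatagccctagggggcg
Dnajc3 (chr14:118937807-118937865, + strand): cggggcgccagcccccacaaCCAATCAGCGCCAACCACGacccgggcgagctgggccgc
Herpud1 (chr8:94386357-94386407, + strand): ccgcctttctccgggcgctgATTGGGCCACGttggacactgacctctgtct
Txndc5 (chr13:38528026-38528072, − strand): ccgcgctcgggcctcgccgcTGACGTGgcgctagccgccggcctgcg
Hspa5 encodes BiP, Hsp90b1 GRP94, Calr and Canx the lectin chaperones calreticulin and calnexin, Dnajc3 a co-chaperone of BiP, Herpud1 a membrane organiser of ERAD and Txndc5 a member of the PDI family. The ER stress response element lay 46 bases before the start in Hspa5, 86 in Dnajc3, 126 in Canx and 143 in Calr, and Hsp90b1 held it at 193 and at 88 bases. Derl3, Pdia6, Creld2 and Syvn1 were the other 4 genes with this element. A match is a description of letters and shows no binding. The list holds genes known to be raised by the unfolded protein response, so a larger share than among all genes was foreseeable and is not a test.

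After filtering, 9275 cells were kept from libraries of 33024170 and 14744778 UMIs (unique molecular identifiers, each marking 1 captured RNA molecule). The 3 classes compared are 475 high endothelial-like cells, 1 cluster led by Ccl21a, Glycam1 and Fut7, then 3721 other blood endothelial cells and 3725 lymphatic cells. UMIs were summed per class and pool, and a level is given as CPM, the UMIs of a gene scaled to 1000000 UMIs per sum. The high endothelial-like sums are thin, with 11 to 128 cells and 80331 to 1104751 UMIs, and both WT peripheral ones hold only 22 and 11 cells. Cells of that class were also deeper, with a median of 4668.5 to 10489 UMIs per cell by sum against 2280 to 3579 in other blood cells. Xist was detected in 82.5% and 73.1% of Xbp1-KO cells and under 2% of WT cells in library 1, and the other way round in library 2, so within either library sex and genotype cannot be told apart. The 2 pools of each combination of tissue and genotype therefore differ in sex as well as in library. Markers of plasma and B cells summed to 0 to 20.2 CPM in WT and 0 to 26.3 CPM in Xbp1-KO high endothelial-like cells over 7 genes, with 1 UMI of Jchain in that class.

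Xbp1 itself (chr11:5520659-5525893) was the check of the labels. In other blood cells it stood at 159 to 245 CPM in the 4 WT pools and 89.9 to 125 CPM in the 4 Xbp1-KO pools, and in lymphatic cells at 56.4 to 122 against 47.1 to 53.7 CPM, with no overlap in either class. In high endothelial-like cells the WT pools held 334 and 270 CPM (peripheral, library 1 then 2) and 501 and 416 CPM (mesenteric), against 219, 149, 225 and 328 CPM in the Xbp1-KO pools, so 1 Xbp1-KO pool reached into the WT range. The log2 fold change was −0.80 ± 0.14 (SE) in other blood, −1.03 ± 0.16 in lymphatic and −0.63 ± 0.25 in high endothelial-like cells. Adjusted p from the edgeR quasi-likelihood test was 0.529, 0.184 and 1, and with the library as a block 0.0021, 0.000961 and 1. Over the settings run, the fold of Xbp1 ran from −1.32 to −0.68 in lymphatic and from −0.96 to −0.41 in high endothelial-like cells. A 3′ count reads the end of the mRNA, so residual counts say nothing on whether the protein was made.

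In WT nodes, high endothelial-like cells held more transcript of many of these genes than other blood endothelial cells. Of the 34 members tested, 12 were higher at an adjusted p under 0.05 and 0 were lower, where 6.95% of all 8961 genes were higher and 10.8% lower. The median over the 34 was 0.57 on the log2 scale, against −0.17 over all genes tested, and 29 had a fold change above 0. Pool by pool the median was 0.06 and 0.32 in the peripheral pools (libraries 1 and 2) and 0.78 and 0.69 in the mesenteric ones. Over all genes tested it was −0.35 and −0.38 in the peripheral and −0.02 and −0.01 in the mesenteric pools. With the pool as a block, 14 were higher and 0 lower (8.78% and 12.6% of all genes), the additions being Hyou1 and Hsp90b1. Among the members, 13 (38.2%) were higher in each of the 4 WT pools, against 12.1% of all genes. None of the members was among the genes used for clustering. The 12 also lie in a class with less of the dissociation response, of which 16 of 17 tested genes were lower in these cells, and its part in the result was not tested.

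Fkbp2, an ER peptidyl-prolyl isomerase on chr19:6977741-6980501, had the largest fold of the 34. It stood at 192 and 183 CPM in the peripheral and 254 and 208 CPM in the mesenteric WT pools of high endothelial-like cells. Other blood cells held 53.0 to 92.1 CPM and lymphatic cells 115 to 186 CPM. All 4 high endothelial-like pools were above every blood pool, and they touched the lymphatic range. The log2 fold change was 1.72 ± 0.23 against blood (adjusted p = 2.68e-05, edgeR) and 0.97 ± 0.22 against lymphatic cells (adjusted p = 0.00279). Ppib, the secretory-pathway cyclophilin B, was at 404, 550, 577 and 606 CPM against 425 to 448 CPM in blood, so that its lowest pool lay below the blood range. Its fold was 0.58 ± 0.16 against blood (adjusted p = 0.0186) and 0.73 ± 0.16 against lymphatic cells (adjusted p = 0.00241). The first of these calls ended with no filter on low counts (adjusted p = 0.0838), with sums thinned to 1 depth (0.44, adjusted p = 0.175) and without library 2 (0.41, adjusted p = 0.284).

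Of the ERAD genes, Selenos and Erlec1 were higher. Selenos encodes a selenoprotein of the ER membrane that tethers the p97 ATPase to the dislocation complex, and lies on chr7:66079649-66089405. High endothelial-like WT pools held 131 and 119 CPM (peripheral) and 214 and 168 CPM (mesenteric), against 74.9 to 94.7 CPM in blood and 93.9 to 152 CPM in lymphatic cells. The fold was 1.20 ± 0.22 against blood (adjusted p = 0.000692, edgeR) and 0.68 ± 0.21 against lymphatic cells (adjusted p = 0.024). The latter call was lost with no filter on low counts (0.62, adjusted p = 0.0628) and with sums thinned to 1 depth (0.33 ± 0.33, adjusted p = 0.491). Erlec1, an ERAD lectin, was at 30.3, 43.1, 32.5 and 60.8 CPM against 10.2 to 27.2 CPM in blood, with a fold of 1.58 ± 0.49 (adjusted p = 0.0291). Those peripheral values rest on 3 and 4 UMIs. The other ERAD genes did not pass: Herpud1, for example, had a fold of −0.57 ± 0.24 (adjusted p = 0.117), and Derl2, a derlin of the membrane channel, 0.72 ± 0.34 (adjusted p = 0.167).

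Both lectin chaperones were higher in high endothelial-like than in other blood cells. Calr was at 323 and 507 CPM in peripheral and 675 and 513 CPM in mesenteric pools, against 301 to 323 CPM in blood, and its fold was 0.96 ± 0.19 (adjusted p = 0.00111, edgeR). Canx was at 162, 216, 281 and 189 CPM against 120 to 155 CPM, with a fold of 0.83 ± 0.20 (adjusted p = 0.00658). Uggt1, the folding sensor that sends glycoproteins back to them, had a fold of 0.13 ± 0.36 (adjusted p = 0.867).

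In the disulfide family, P4hb (protein disulfide isomerase itself) was at 243, 151, 294 and 262 CPM against 137 to 164 CPM in blood. Its fold was 0.90 ± 0.20 (adjusted p = 0.00276, edgeR), and 1 peripheral pool fell within the blood range. Pdia6 was at 142, 237, 175 and 248 CPM against 92.6 to 179 CPM, with a fold of 0.87 ± 0.26 (adjusted p = 0.0238) that ended when unnamed blood endothelial cells were added to the blood class (0.0582). Pdia3, the isomerase that works with the lectin chaperones, followed with 0.57 ± 0.17 (adjusted p = 0.0255). Pdia4, Txndc5, Txndc11 and Creld2 did not pass.

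Within the chaperone machine, Manf, a small BiP cofactor that is also secreted, was at 222, 194, 297 and 246 CPM against 126 to 172 CPM in blood, with no overlap and a fold of 0.87 ± 0.19 (adjusted p = 0.00323, edgeR). Sdf2l1, a partner of BiP and its J proteins, had a fold of 1.17 ± 0.38 (adjusted p = 0.042). Hspa5 was at 293, 518, 508 and 481 CPM against 254 to 461 CPM, so the groups overlapped, and its fold was 0.62 ± 0.21 (adjusted p = 0.0455). All 10 genes of this role had a fold above 0 in the fit without a block, such as Sil1, the nucleotide exchange factor of BiP, with 1.07 ± 0.43 (adjusted p = 0.11). The calls of Erlec1, Pdia3, Sdf2l1 and Hspa5 against blood were not followed gene by gene through the other settings. With no filter on low counts 9 of 35 members were higher (3.33% of all genes), and with unnamed blood endothelial cells added 9 of 34 (5.86%).

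**Figure D1:**
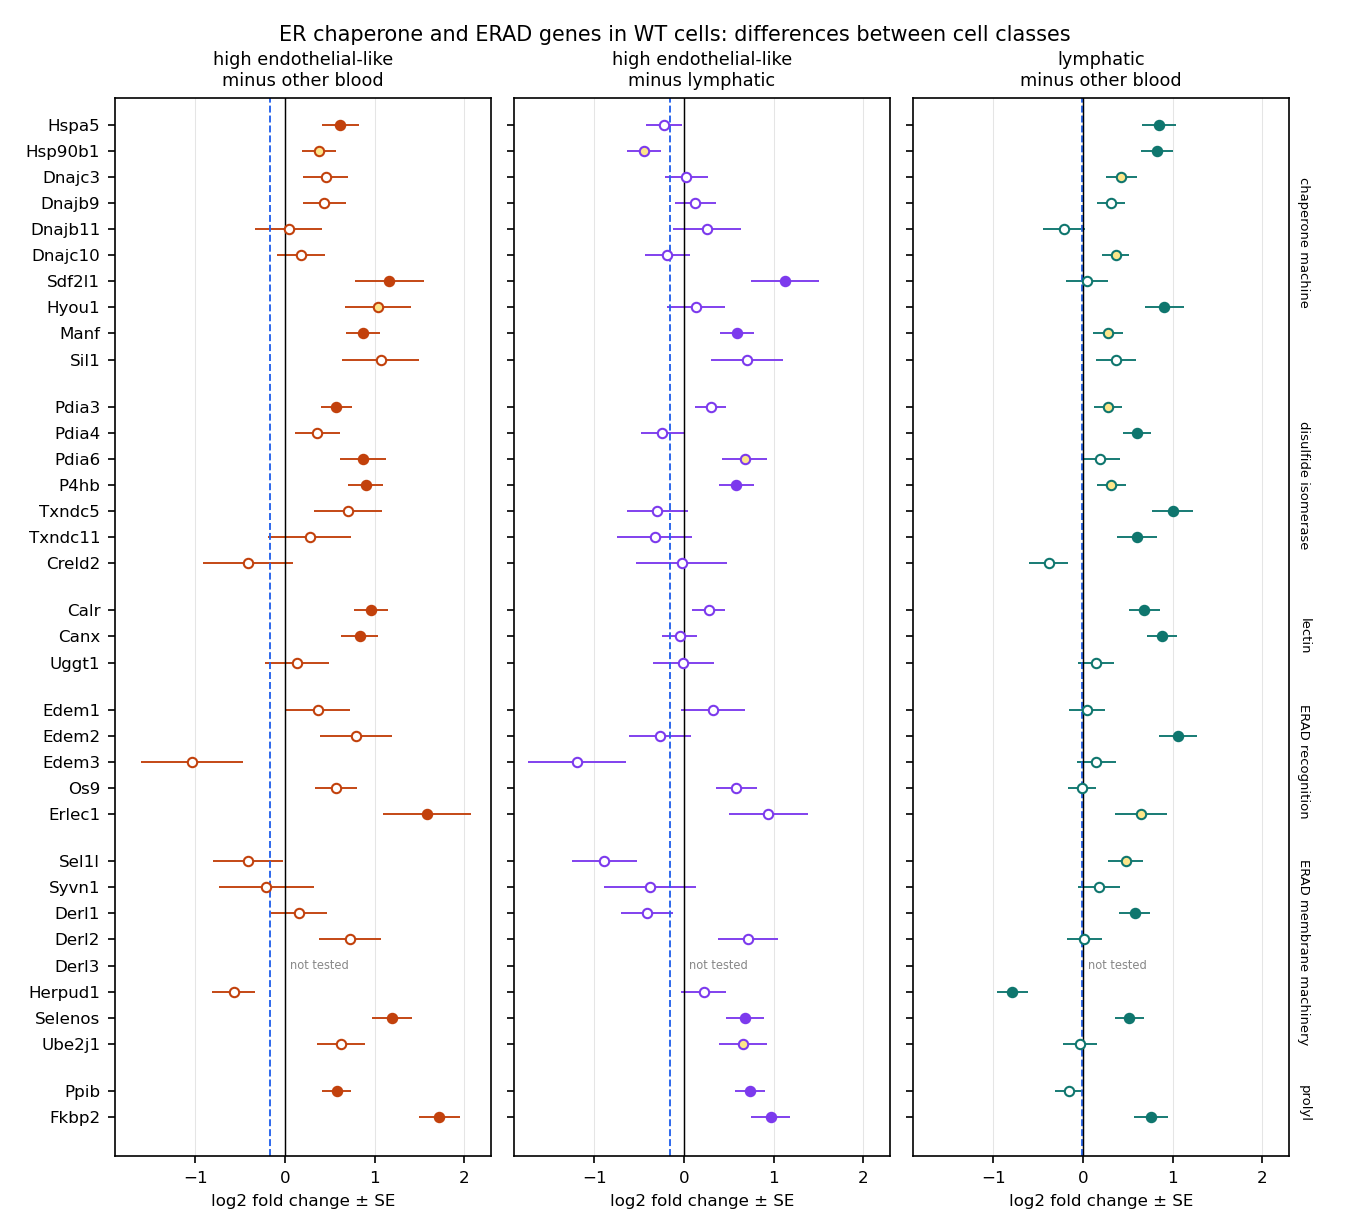
Log2 fold change ± SE of each tested member between cell classes in WT pools, in 3 panels, ordered by role. Filled points have an adjusted p under 0.05 (edgeR), yellow points only with the pool as a block, open points neither; the blue dashed line is the median of all genes tested. Fkbp2 and Selenos are filled and right of 0 in all 3 panels, and Herpud1 is filled and left of 0 in the panel of lymphatic against other blood cells.

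Fewer members were called against lymphatic cells. Of 34 members 6 were higher in high endothelial-like cells and 0 lower, where 10.3% of all genes were higher and 14.7% lower. The median was 0.17, against −0.15 over all genes, and ran from 0.29 to 0.42 with a library left out. Pool by pool it was −0.48 in the peripheral pool of library 1, where that of all genes was −0.37, and 0.23 to 0.53 in the other 3 pools. In those 3 the median of all genes ran from −0.39 to 0.01. Besides Ppib, Fkbp2 and Selenos, these were Manf (0.59 ± 0.19, adjusted p = 0.0281, edgeR), P4hb (0.58 ± 0.19, adjusted p = 0.032) and Sdf2l1 (1.12 ± 0.38, adjusted p = 0.0339). The calls of Manf and P4hb were lost with no filter on low counts and without library 1, that of Manf also without library 2 (0.59, adjusted p = 0.0639) and that of P4hb also with sums thinned to 1 depth (0.49, adjusted p = 0.189). With the pool as a block 9 passed, where 12.1% of all genes were higher and 15.9% lower: Pdia6 (0.63) and Ube2j1 (0.67) joined those that were higher, and Hsp90b1 was lower at −0.44 (adjusted p = 0.00722). Over the settings run the fold of Pdia6 lay between 0.24 and 0.87. With sums thinned to 1 depth only 16 members could be tested, and 3 of them passed (18.8%), Fkbp2, Manf and Ppib, where 17.6% of 2423 genes were higher. The 18 dissociation genes summed to 8354 to 15660 CPM in these WT pools of high endothelial-like and 14710 to 26600 CPM in those of lymphatic cells, with 5 of 17 tested genes lower and 1 higher, and their part in the result was not tested.

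Lymphatic cells were above other blood cells for 12 members and below for 1, where 19.8% of all genes were higher and 18.1% lower. The median was 0.34, against −0.01. It ran from 0.27 to 0.32 with a library left out. Thinned sums left 16 members to be tested, with a median of 0.60, of which 3 (18.8%) were higher and 0 lower, where 16.1% of 2423 genes were higher and 17.2% lower. The 18 genes of the dissociation response summed to 14710 to 26600 CPM in WT lymphatic and 27610 to 38670 CPM in WT other blood pools, and their part in these results was not tested. Among the chaperones, Hspa5 was at 1007, 730, 666 and 493 CPM in lymphatic and 461, 404, 324 and 254 CPM in other blood pools. Every lymphatic pool was above every blood pool, and the fold was 0.84 ± 0.19 (adjusted p = 0.00142, edgeR). Hsp90b1 was at 956, 710, 763 and 653 CPM against 334 to 446 CPM, again without overlap (0.83 ± 0.18, adjusted p = 0.000906). Canx was at 278 to 323 against 120 to 155 CPM (0.88 ± 0.17, adjusted p = 0.00032).

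Edem2, a mannosidase-like protein that marks glycoproteins for ERAD, was at 63.2, 56.5, 46.1 and 47.0 CPM in lymphatic cells against 19.3 to 34.0 CPM in blood (1.06 ± 0.21, adjusted p = 0.000358, edgeR). Txndc5 was at 50.9 to 63.4 against 18.3 to 34.0 CPM (1.0 ± 0.23, adjusted p = 0.00144). Herpud1 went the other way, with 105, 76.8, 66.2 and 56.4 CPM in lymphatic and 106, 157, 99.6 and 121 CPM in blood pools (−0.79 ± 0.17, adjusted p = 0.000864), and its pools overlapped across tissues. The remaining calls were Hyou1, an HSP70 relative that helps BiP (0.90 ± 0.22), Fkbp2 (0.76 ± 0.19), Calr (0.68 ± 0.17), Pdia4 (0.60), Derl1 (0.57), Selenos (0.52) and Txndc11 (0.60). With the pool as a block 19 members were higher and 1 lower (23.3% and 22.9% of all genes), and without library 1 there were 6, namely Herpud1, Hsp90b1, Canx, Hspa5, Fkbp2 and Calr. In that setting 14.7% of the members were higher, against 11.9% of 8977 genes, where 35.3% of the members had been higher with both libraries. Herpud1 lost its call without library 2 (−0.49, adjusted p = 0.0524) and with sums thinned to 1 depth (−0.66, adjusted p = 0.372), as did Canx (adjusted p = 0.0623) and Fkbp2 (adjusted p = 0.0737) with thinned sums.

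The order of class means therefore differed from gene to gene. Fkbp2 and Selenos ran from high endothelial-like over lymphatic to other blood cells, with each neighbouring step past the threshold. With thinned sums the Selenos step from high endothelial-like to lymphatic cells and the Fkbp2 step from lymphatic to other blood cells were lost. The Selenos step was also lost with no filter on low counts. Hspa5, Hsp90b1 and Canx ran from lymphatic over high endothelial-like to other blood cells in their means, but the step from lymphatic to high endothelial-like cells did not pass in the fit without a block, nor did that from high endothelial-like to other blood cells for Hsp90b1. With the pool as a block the step from lymphatic to high endothelial-like cells passed for Hsp90b1 but not for Hspa5 or Canx. For Canx its fold was only −0.05 ± 0.20 without the block. Xbp1 had yet another order. It was higher in high endothelial-like than in other blood cells (1.27 ± 0.20, adjusted p = 0.000142, edgeR) and lower in lymphatic than in other blood cells (−1.07 ± 0.19, adjusted p = 9.87e-05). The sum of all 35 members took 0.504% of UMIs in WT mesenteric and 0.398% in WT peripheral high endothelial-like cells, 0.497% and 0.556% in lymphatic cells, and 0.337% and 0.359% in other blood cells (means of 2 pools). In Xbp1-KO the shares in the same order were 0.430% and 0.376%, then 0.507% and 0.566%, and 0.322% and 0.357%.

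Derl3, a derlin known from secretory cells, was not tested. It gave 0 UMIs of 3997313 in high endothelial-like cells, which allows up to 0.751 CPM, and 4 and 1 UMIs in other blood and lymphatic cells, counting error only.

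Genes with and without the ER stress response element were compared as a description. Between lymphatic and other blood cells the 8 tested members with the element had a median log2 fold change of 0.55 and the 21 without it 0.28. Between high endothelial-like and other blood cells the medians were 0.53 and 0.57. In high endothelial-like cells of Xbp1-KO against WT they were −0.11 over 7 genes and −0.22 over 19.

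In Xbp1-KO high endothelial-like cells, most members were counted at lower levels than in WT, but none passed the test. Averaged over both tissues, 24 of 31 tested members had a fold change below 0 and 7 above, with a median of −0.26 against 0.02 over all 6085 genes. edgeR called 0 of the 31, and 0 of all genes (0%), at an adjusted p under 0.05, and DESeq2 also called 0 members. At an unadjusted p under 0.05, 5 members (16.1%) were lower and 0 higher, where 1.63% of all genes were lower and 1.82% higher. In all 4 pairs of pools from the same library and tissue, 7 members (22.6%) were lower in Xbp1-KO, against 5.14% of genes. Derl3, Edem3, Syvn1 and Txndc11 had too few counts to be tested.

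The 5 members with the smallest p are given pool by pool. Fkbp2 was at 192 and 183 CPM in WT and 105 and 74.7 CPM in Xbp1-KO peripheral pools (library 1, then library 2), and at 254 and 208 against 140 and 127 CPM in mesenteric pools. No Xbp1-KO pool overlapped a WT pool, and the log2 fold change over both tissues was −0.80 ± 0.26 (adjusted p = 1, edgeR), with −1.25 from thinned sums. Selenos was at 131 and 119 CPM in WT and 82.5 and 137 CPM in Xbp1-KO peripheral pools, then at 214 and 168 against 87.8 and 72.8 CPM in mesenteric pools. The mesenteric pools did not overlap and the peripheral ones did. Its fold was −0.72 ± 0.26 over both tissues (adjusted p = 1).

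Dnajc3, the co-chaperone that passes clients to BiP, was at 60.6 and 130 CPM in WT and 38.0 and 49.8 CPM in Xbp1-KO peripheral pools, and at 125 and 141 against 57.0 and 107 CPM in mesenteric pools. Within each tissue the groups did not overlap, and the fold was −0.89 ± 0.32 (adjusted p = 1, edgeR). Hyou1 was at 60.6, 21.6, 31.2 and 28.8 CPM in WT and 19.0, 12.4, 15.4 and 17.1 CPM in Xbp1-KO, without overlap, with a fold of −0.97 ± 0.43 (adjusted p = 1). The peripheral values of Hyou1 rest on 1 to 6 UMIs, and those of Dnajc3 come from the same thin sums of 80331 to 315334 UMIs. Txndc5 was at 10.1 and 75.5 CPM in WT and 12.7 and 0 CPM in Xbp1-KO peripheral pools, and at 30.0 and 25.6 against 17.2 and 21.6 CPM in mesenteric pools. The pool at 0 held 80331 UMIs, which allows up to 37.3 CPM, and the fitted fold was −1.20 ± 0.55 (adjusted p = 1). It ran from −3.95 without the Xbp1-KO peripheral pool of library 1 to −0.13 without the WT peripheral pool of library 2, the one at 75.5 CPM. Over the settings run, Dnajc3 ran from −1.12 to −0.51 and Hyou1 from −1.38 to −0.50, in both cases with a peripheral pool left out at either end.

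**Figure D2:**
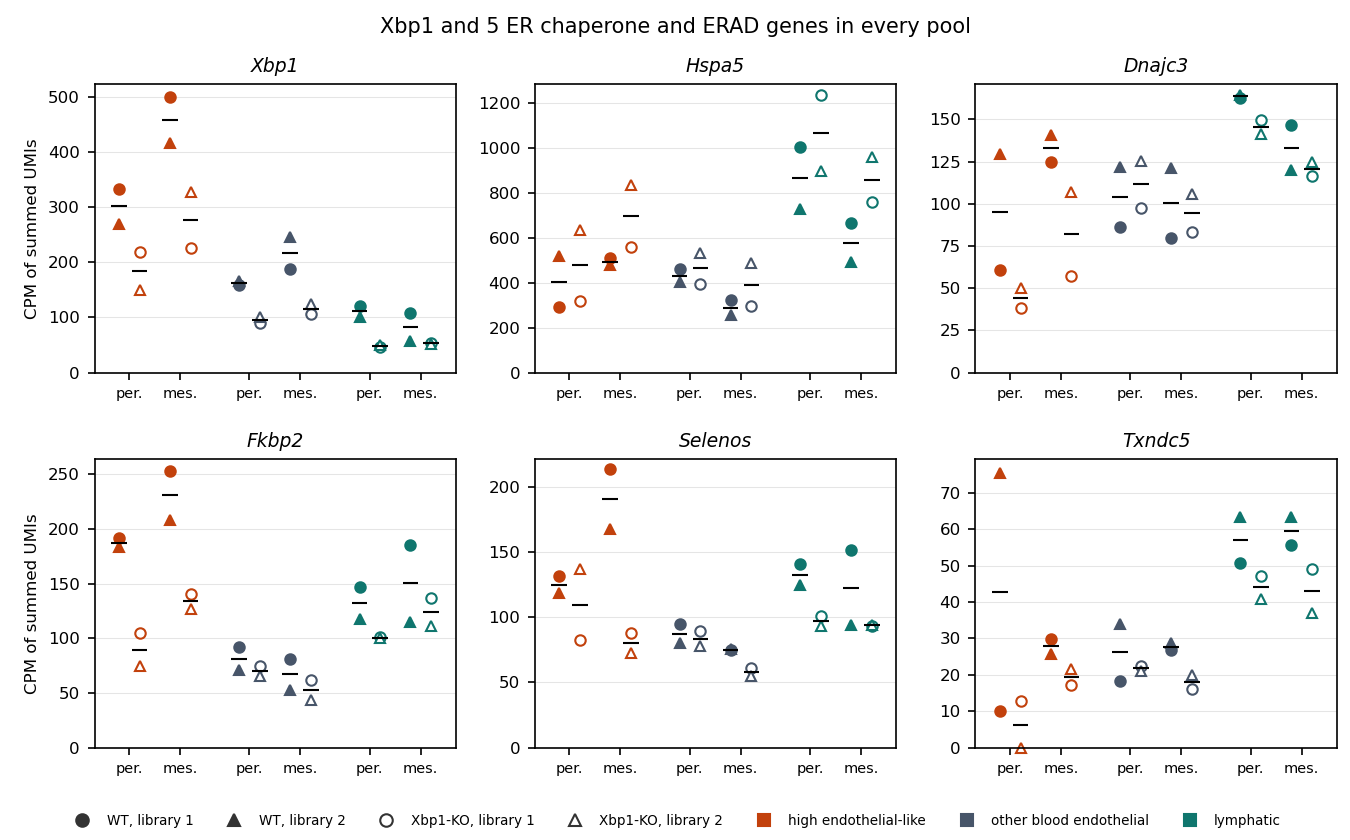
CPM of Xbp1 and 5 members in every pool of the 3 cell classes. Circles are library 1 and triangles library 2, filled for WT and open for Xbp1-KO, and bars are means of 2 pools. For Fkbp2 the open symbols of high endothelial-like cells (74.7 to 140 CPM) all lie under the filled ones (183 to 254 CPM).

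The tissues were then taken apart. In mesenteric nodes, where the high endothelial-like sums hold 55 to 128 cells, 27 of 31 members had a fold change below 0, with a median of −0.42 against 0.01 over all genes, and 21 (67.7%) were lower in both libraries, against 23.1% of genes. None passed in edgeR or DESeq2 (0% of all genes in edgeR), and at an unadjusted p under 0.05 6 members (19.4%) were lower and 0 higher, against 0.855% and 1.15% of genes. Selenos had a fold of −1.19 ± 0.29 (adjusted p = 0.726, edgeR; 0.148 with the library as a block). Fkbp2 followed with −0.74 ± 0.31, then Edem1, which extracts misfolded glycoproteins from the folding cycle, with −0.92 ± 0.39. Edem1 was at 36.2 and 28.8 CPM in WT and 14.5 and 19.3 CPM in Xbp1-KO. Uggt1, at 73.7 and 49.6 against 30.8 and 42.1 CPM, had −0.74 ± 0.32, and Dnajc3 −0.69 ± 0.31. With a mesenteric pool left out Uggt1 ran from −0.98 to −0.45 and Dnajc3 from −1.04 to −0.42.

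Hspa5 did not share this direction. It was at 508 and 481 CPM in WT and 561 and 837 CPM in Xbp1-KO mesenteric pools. The summed level of 18 genes known to respond to tissue dissociation, a list added after values had been seen, was 8354 and 12050 CPM in WT and 9712 and 21210 CPM in Xbp1-KO, with overlap. Of 16 tested, 16 had a fold above 0, 5 at an unadjusted p under 0.05, and 0 passed in edgeR. Their part in the members' values was not tested.

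In peripheral nodes 17 of 31 members had a fold change below 0, with a median of −0.20 against 0.01. That median turned to 0.02 under the ratio rule, another way of calling the hashtags, and to 0.14 without the WT pool of library 2. The pair of library 1 had a median of 0.21, as did all genes, and the pair of library 2 one of −0.14. edgeR called 0 members and 0% of genes, DESeq2 called 0 members, and 0 members had an unadjusted p under 0.05, where 1.46% of genes were lower and 2% higher. The members with the smallest p were Fkbp2 (−0.86 ± 0.42), Dnajc3 (−1.08 ± 0.55), Txndc5 (−1.91 ± 0.99), Ube2j1 (−1.02 ± 0.55), the ERAD ubiquitin-conjugating enzyme, and Herpud1 (−1.39 ± 0.77), each with an adjusted p of 0.997. With a peripheral pool left out, Fkbp2 ran from −1.52 to −0.49, Dnajc3 from −1.53 to −0.32 and Ube2j1 from −1.92 to −0.40. Txndc5 turned to 0.24 without the WT peripheral pool of library 2. Herpud1 was at 70.8 and 75.5 CPM in WT and 25.4 and 24.9 CPM in Xbp1-KO peripheral pools, without overlap, while the mesenteric pools held 52.5 and 65.6 against 40.7 and 150 CPM. Its peripheral values rest on few UMIs, from sums of 98942 and 92698 UMIs (WT) and 315334 and 80331 UMIs (Xbp1-KO).

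**Figure D3:**
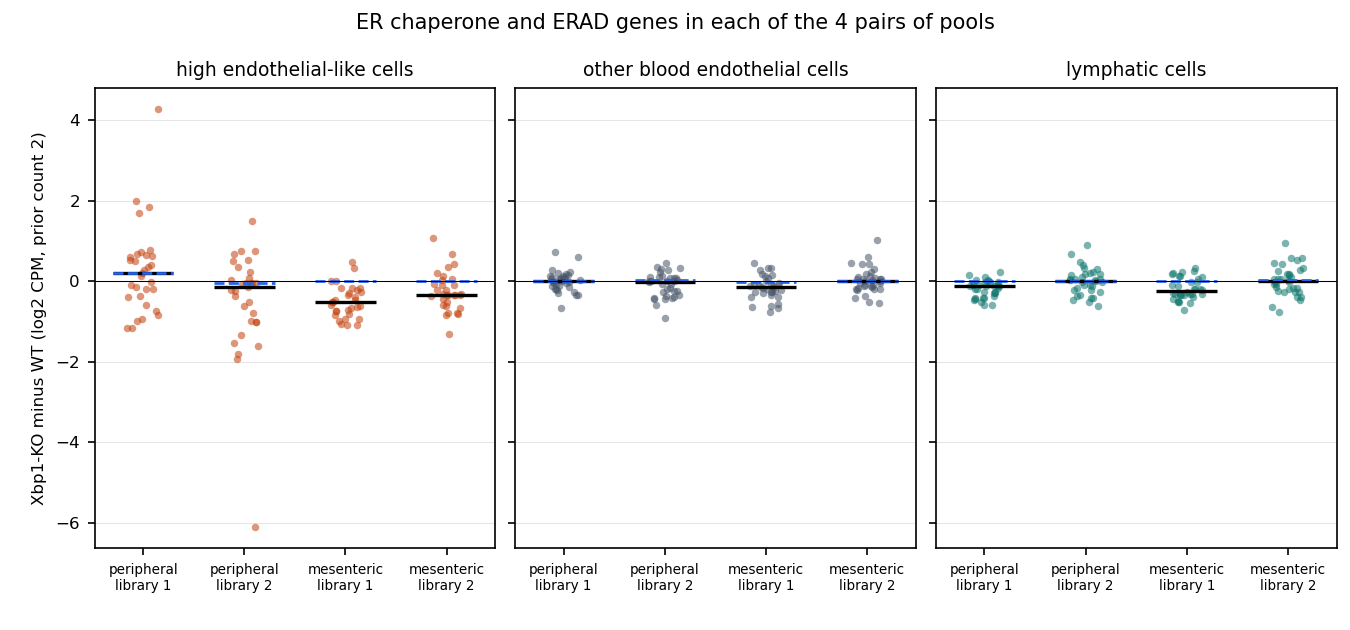
Difference in log2 CPM, Xbp1-KO minus WT, for each tested member in each pair of pools from the same library and tissue, by cell class. Each dot is a member, the black bar the members' median and the blue dashed bar the median of all genes tested; high endothelial-like mesenteric pairs have member medians of −0.53 and −0.34. Dots far from 0 are members with a pool at or near 0 UMIs, whose place depends on the prior count of 2.

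The test of the tissue difference gave 0 members and 0% of genes in each class in edgeR, and 0 members in DESeq2. At an unadjusted p under 0.05 it gave 3 of 31 members in high endothelial-like cells (3.35% of genes), 0 in lymphatic (2.8%) and 0 in other blood cells (2%). The 3 were Herpud1 (mesenteric minus peripheral effect, 2.05 ± 0.86), Ube2j1 (1.47 ± 0.64) and Uggt1 (−1.42 ± 0.66), each with an adjusted p of 1. Selenos had −0.95 ± 0.52. Over the settings run Herpud1 lay between 0.97 and 2.60, Ube2j1 between 0.85 and 2.37 and Selenos between −1.57 and −0.76. The effects in the 2 tissues were thus not shown to differ for any member.

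Lymphatic cells of both tissues had 23 of 34 members with a fold change below 0 in Xbp1-KO, with a median of −0.16 against 0.01 over 10683 genes. The pairs of library 1 had medians of −0.13 (peripheral) and −0.25 (mesenteric) and both pairs of library 2 had 0.02, and the median ran from −0.20 to −0.08 with a sum or library left out. edgeR called 0 members and 0% of genes, and DESeq2 0 members. At an unadjusted p under 0.05, 4 members (11.8%) were lower and 1 (2.94%) higher, where 3.11% of genes were lower and 2.82% higher. In all 4 pairs 8 members (23.5%) were lower, against 8.64%.

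Selenos fell in lymphatic cells once the library was a block. Its WT pools held 141, 124, 152 and 93.9 CPM and its Xbp1-KO pools 101, 93.1, 93.7 and 94.2 CPM, with overlap at the mesenteric pool of library 2. The fold was −0.50 ± 0.13 without the block (adjusted p = 0.508, edgeR) and −0.49 ± 0.10 with it (adjusted p = 0.0267), where 90 genes (0.842%) were called. Over the settings run it lay between −0.61 and −0.25, the upper end being that without the WT mesenteric pool of library 1. Fkbp2 was at 147, 118, 186 and 115 CPM in WT and 101, 101, 137 and 112 CPM in Xbp1-KO, with a fold of −0.42 ± 0.14 (adjusted p = 0.684, and 0.072 with the block). It was −0.55 without library 2 and −0.16 without library 1. Manf was at 223, 186, 247 and 195 CPM in WT against 153, 176, 175 and 176 CPM, without overlap. Its fold was −0.37 ± 0.13 (adjusted p = 0.674, edgeR), with −0.57 without library 2 and −0.12 without library 1. Only 1 library is left in each of these settings, and within either library sex and genotype cannot be told apart. Txndc5 was at 50.9 to 63.4 CPM in WT and 37.0 to 49.1 CPM in Xbp1-KO, also without overlap (−0.42 ± 0.14, adjusted p = 0.674), and its fold was −0.18 without library 2 and −0.69 without library 1.

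Hspa5 had the opposite sign, with 1007 against 1237 CPM and 730 against 899 CPM in the peripheral pairs, and 666 against 759 and 493 against 960 CPM in the mesenteric pairs. It was above WT in 4 of 4 pairs, and the fold was 0.40 ± 0.15 (adjusted p = 0.797, edgeR; 0.0842 with the block). It was 0.20 without library 2 and 0.61 without library 1. The clusters of the class were not equally filled. That led by Igfbp5, low in Hspa5, held 12.7% and 11.2% of WT and 7.48% and 13.2% of Xbp1-KO peripheral lymphatic cells (libraries 1 and 2), and 21.7% and 38.5% against 19.3% and 11.3% of mesenteric ones. That led by Postn, high in Hspa5, held 17.2% and 11.6% of WT and 19.4% and 16.9% of Xbp1-KO peripheral cells. Within the Postn cluster Hspa5 was at 1262 and 1043 CPM (WT) against 1782 and 1334 CPM (Xbp1-KO), and within the Igfbp5 cluster at 432 and 418 against 392 and 482 CPM. The part of these shares in the value of the class was not tested. In mesenteric lymphatic pools the dissociation genes summed to 14710 and 16410 CPM in WT and 21680 and 29230 CPM in Xbp1-KO, and their part in this value was not tested. By tissue, Selenos had −0.48 ± 0.18 in peripheral and −0.51 ± 0.20 in mesenteric lymphatic cells. The mesenteric value ran from −0.74 to −0.02, the latter without the WT pool of library 1, and the pair of library 2 was at 93.9 and 94.2 CPM. Creld2, a PDI-family cofactor, had −0.45 ± 0.21 in peripheral (−0.22 without the WT pool of library 1) and Edem1 −0.56 ± 0.29 in mesenteric cells, and neither passed.

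Other blood endothelial cells showed as many members below 0 as above it. Over both tissues 17 members had a fold below 0 and 17 above, with a median of 0.00 against 0.01 over 9808 genes. edgeR called 0 members and 0% of genes, DESeq2 0 members, and 0 members had an unadjusted p under 0.05, where 0.673% of genes were lower and 1.56% higher. The smallest p belonged to Creld2, at 29.5, 30.9, 28.3 and 22.7 CPM in WT and 18.6, 21.9, 25.1 and 19.5 CPM in Xbp1-KO (−0.40 ± 0.20, adjusted p = 1). Erlec1 had 0.58 ± 0.33, Hyou1 −0.40 ± 0.22 and Fkbp2 −0.32 ± 0.19. The settings run gave −0.64 to −0.27 for Creld2, 0.25 to 1.22 for Erlec1, −0.57 to −0.14 for Hyou1 and −0.45 to −0.08 for Fkbp2. Without library 1 the fold of Hspa5 was 0.72, and in library 1 both of its pairs lay below 0, at −0.26 and −0.10. With library 1 left out, 1 pool per combination of tissue and genotype remains. Within library 2 sex and genotype cannot be told apart. In library 2 the dissociation genes summed to 38670 CPM (WT) against 41770 CPM (Xbp1-KO) in the peripheral pair of this class, and to 34890 against 62020 CPM in the mesenteric pair. The cluster led by Scgb3a1, Srarp and Hspa1a held 10.7% of WT and 8.06% of Xbp1-KO peripheral cells of the class in that library, and 42.4% and 68.1% of mesenteric ones. The part of either in the value of Hspa5 was not tested. In mesenteric blood cells Hyou1 had −0.73 ± 0.32 (−0.41 with unnamed blood endothelial cells added), at 23.3 and 19.7 CPM in WT against 13.1 and 12.7 CPM in Xbp1-KO.

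**Figure D4:**
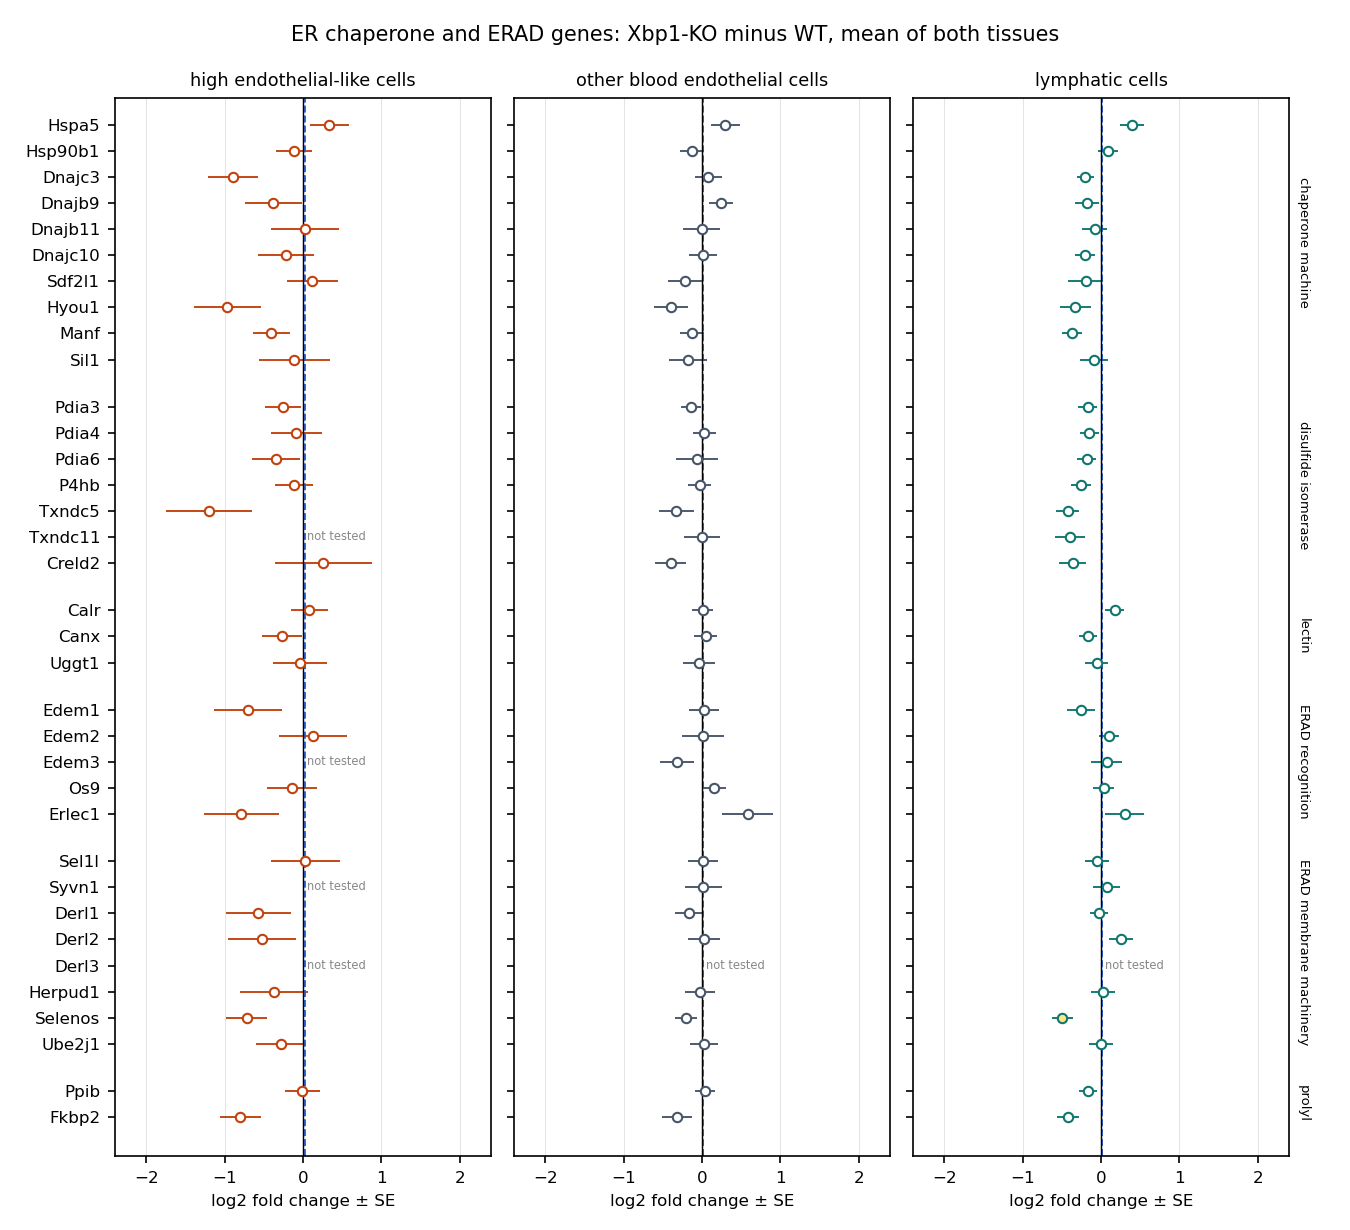
Log2 fold change ± SE of each tested member, Xbp1-KO minus WT over both tissues, in 3 cell classes, with the symbols used for WT cells. No point is filled; Selenos in lymphatic cells is the single yellow point, at −0.50 without and −0.49 with the library as a block.

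Whether the Xbp1-KO effect differed between classes was tested directly, and edgeR called 0 members, with DESeq2 also at 0, and 0% of genes. At an unadjusted p under 0.05 there was 1 member for high endothelial-like against other blood cells (4.3% of genes), 0 against lymphatic cells (4.5%) and 0 for lymphatic against other blood cells (1.98%). Dnajc3 had the smallest p against other blood cells (high endothelial-like minus other blood effect, −0.91 ± 0.34) and against lymphatic cells (−0.63 ± 0.33). In other blood cells its levels were 86.0, 122, 79.9 and 121 CPM in WT and 97.3, 126, 83.4 and 106 CPM in Xbp1-KO. Selenos had −0.46 ± 0.27 against other blood cells. Over the settings run Dnajc3 lay between −1.38 and −0.52 against other blood and between −1.02 and −0.34 against lymphatic cells, and Selenos between −0.87 and −0.31. These comparisons share pools, and the Xbp1-KO effect was therefore not shown to be larger in high endothelial-like cells for any member.

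A second list of 43 other genes of ER folding and ERAD was counted beside the members. In WT high endothelial-like against other blood cells 3 of 39 tested were higher and 1 lower, where 6.95% of all genes were higher and 10.8% lower, with a median of −0.03: Tmx3, a membrane thioredoxin, at 1.68 ± 0.20, Fkbp11 at 3.30 ± 0.82, Fkbp10 at 1.37 ± 0.35 and Selenom at −0.73 ± 0.21. In lymphatic against other blood cells 8 of 39 were higher and 1 lower, where 19.8% of all genes were higher and 18.1% lower. The median was 0.14, and the smallest p belonged to Pdia5 at 2.36 ± 0.24. In Xbp1-KO against WT 0 passed in any class in edgeR, and at an unadjusted p under 0.05 there were 1 of 34, 1 of 39 and 2 of 41 genes in high endothelial-like, other blood and lymphatic cells. The medians were −0.02 in high endothelial-like, −0.03 in other blood and −0.04 in lymphatic cells.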

How the data were processed

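The deposited values are raw UMI counts for each gene in each barcode. The file headers name Cell Ranger 6.0.1, and the submitters' processing notes 6.1 and mm10. Hashtags were called with HTODemux (Seurat 5.3.0, quantile 0.99). Cells had 1 tag, at least 500 genes and at most 10% mitochondrial UMIs, and Scrublet (0.8% per 1000 cells) removed 65 and 4 cells as doublets. It marked only 25.6% and 4.62% of the barcodes with more than 1 tag, so doublets within 1 pool may remain. In scanpy 1.11.5, 2000 variable genes, 30 components, 15 neighbours and Leiden resolution 1 gave clusters named from fixed markers; 2 rules were added after clusters were seen, Prox1 in 25% of lymphatic cells and a class marker among the 10 leading genes of blood clusters. Left out were 1120 unnamed blood endothelial, 122 stromal, 42 plasma or B, 40 dividing and 30 unnamed cells. The 2 libraries shared 2 barcodes among kept cells.

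Sums of counts over the cells of a class in a pool were tested with edgeR 4.0.16 (R 4.3.3; TMM, filterByExpr, quasi-likelihood, Benjamini-Hochberg over all genes). Differences between pairs used log2 CPM with a prior count of 2. Libraries pair the pools by label; the 6 correlations of deviations ran from 0.001 to 0.199 in high endothelial-like, 0.063 to 0.236 in lymphatic and 0.15 to 0.375 in other blood cells. Named members passed the test, up to 8 by p, or were the 5 with the smallest p; others are named as examples chosen after values were seen. DESeq2 1.42.0, a block, RLE factors, no filter, a ratio rule for hashtags, added unnamed cells, thinned sums and left-out sums were alternatives. Members and lists were chosen with earlier results of these data known. The scripts' fits were tested on simulated data.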

Additional observations from a re-analysis of the deposited data

How the results depend on the processing

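The count of members called between WT classes moved by over 1.5 times in 2 of the 3 comparisons. High endothelial-like against lymphatic cells gave 3 of 16 tested with sums thinned to the smallest (6 of 34 in the report), while all genes called went from 2238 to 841. Lymphatic against other blood cells gave 20 with the replicate block of pools and 3 of 16 tested with thinned sums (13 of 34 in the report), and 6 to 16 with a library left out. All genes called there were 3399 in the report, 806 with thinned sums and 1999 to 3932 with a library left out. High endothelial-like against other blood cells gave 9 to 14 over the settings with both libraries (9 of 16 tested with thinned sums), while all genes called ran from 692 to 1915. In Xbp1-KO against WT, 1 lymphatic member passed with the replicate block of libraries, where 0.842% of all genes were called, and the cause was not tested. Fits with a library left out hold 1 pool per combination of tissue and genotype, so their calls are not counted here. Apart from these, 0 members passed under any setting run. The replicate block changed no other call of a member in Xbp1-KO against WT.

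Direction turned for 4 named values, none of which had passed. Dnajc10 in peripheral lymphatic cells was 0.0601 with thinned sums. Hspa5 (tissue difference of the Xbp1-KO effect in other blood cells) ran from −0.0159 (without the Xbp1-KO mesenteric pool of library 2) to 0.702 with a sum left out. Erlec1 (peripheral other blood) ran from −0.0385 (without the WT peripheral pool of library 1) to 1.07 with a sum left out, reaching 1.88 under the ratio rule for hashtags, and Txndc5 (peripheral high endothelial-like) from −7.40, where the remaining Xbp1-KO pool held 0 UMIs, to 0.244 (without the WT peripheral pool of library 2). The members' median in Xbp1-KO high endothelial-like cells ran from −0.27 to −0.19 over the other settings and from −0.40 to −0.14 with a sum or library left out. In mesenteric nodes the ranges were −0.42 to −0.26 and −0.54 to −0.41, and in peripheral nodes −0.21 to 0.02 and −0.18 to 0.14. A block of pools for differences between classes was added after seeing the data.

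Sums of 11 to 22 cells limit what the peripheral high endothelial-like comparison can show: 1 UMI in the smallest sum equals 12.4 CPM.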

Other observations

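For 3 members, chosen after their values were seen, WT levels in single lymphatic clusters are given as values with no test. Calr was at 352 and 418 CPM (libraries 1 and 2) in the cluster led by Igfbp5 and 840 and 655 CPM in the one led by Ptx3. Edem2 was at 29.2 and 46.4 CPM in the Igfbp5 cluster and 91.3 and 94.3 CPM in the one led by Postn, a cluster that is mostly peripheral. Txndc5 was at 73.5 and 112 CPM in the Ptx3 cluster, while the Igfbp5 cluster held 29.2 and 38.7 CPM.

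Outside the classes compared, the 14 and 6 WT cells (libraries 1 and 2) of a cluster led by the myeloid genes Prtn3, Mpo and Ctsg held Calr at 767 and 734 CPM and Sdf2l1 at 418 and 70.4 CPM, the latter from 48 and 7 UMIs. The 43 and 10 WT cells of the stromal cluster led by Dcn held Txndc5 at 99.1 and 47.0 CPM, from 18 and 2 UMIs. In the 15 and 12 WT cells of the plasma and B cell cluster Hspa5 was at 397 and 327 CPM and Txndc5 at 14.2 and 65.3 CPM, the latter from 1 and 2 UMIs, and its leading genes were Igkc, Ighm, Ly6d and Cd79a.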
